A study of Drosophila melanogaster with 8 samples.

Results

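Peaks of phosphorylated p38 (P-p38) at 8 genes of Drosophila S2 cells were examined: the genes of the AP-1 transcription factors and their bZIP partner (kay, Jra, Atf-2), of the kinase p38a, of 3 MAP kinase phosphatases (puc, MKP-4, Mkp3) and of the stress regulator Gadd45. The genes were chosen by name with earlier results of these data known, so their counts are descriptions. Every deposited peak with at least 1 bp within 2 kb of one of them in dm6 was taken. This gave 55 of the 17755 peaks on the chromosome arms. The 8 genes stand among 13922 protein-coding genes on the 6 arms analysed (2L to 3R, 4 and X). Chromatin was immunoprecipitated from sonicated nuclei of S2 cells, a haemocyte-like embryonic line of wild-type genotype per the labels, either after 30 min with 10 mM H2O2 at 25 °C (2 libraries) or after addition of medium alone (2 libraries). The 4 input samples were not analysed here. The lists held 6434 and 4019 peaks on the arms in H2O2 replicates 1 and 2 and 4314 and 2988 in control replicates 1 and 2, and read depth is unknown, so an absent peak is a peak not called in that list. Nothing in the labels says that the replicates were separate cultures. With 2 libraries against 2, permuting the labels exactly gives two-sided p-values of 0.333 or more, so no difference between groups could pass 0.05.

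MAP kinases such as p38, JNK and ERK relay stress and growth signals by phosphorylating other proteins, among them transcription factors. AP-1 is a dimer of bZIP proteins of the Fos and Jun families, which JNK and p38 signalling can activate, and dual-specificity phosphatases remove the activating phosphates from the kinases. Some of these phosphatase genes are themselves targets of the pathway they switch off, puc in the JNK pathway being the classic example in the fly.

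In both H2O2 libraries kay alone among the 8 genes had a peak within 2 kb, which is 12.5% of them against 9.19% of all protein-coding genes. In both control libraries kay, Jra, puc, MKP-4 and Gadd45 had one, which is 62.5% against 13.2% of all protein-coding genes. By role, 1 of the 3 transcription factor genes, 0 of the 3 phosphatase genes, 0 of 1 kinase gene and 0 of 1 other gene were met in both H2O2 libraries. For the pair of control libraries these counts were 2 of 3, 2 of 3, 0 of 1 and 1 of 1. All 8 genes had a peak in at least 1 library, as 42.7% of all genes did. Summits no more than 500 bp from either end of the gene were met at 0 of the 8 in both H2O2 libraries (1.45% of all genes), against 3 (Jra, puc and MKP-4) in both control libraries (3.49%). At puc these were opposite ends of the gene. Control replicate 1 had a summit 13 bp past one end and control replicate 2 had one 176 bp from the other.

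The H2O2 count rests on replicate 1. That library, with the most peaks of the series, had peaks near 1 of the 8 genes (14.9% of all genes), while H2O2 replicate 2 had them near 6 (18.2%), control replicate 1 near 7 (21.5%) and control replicate 2 near 6 (22.4%). Without H2O2 replicate 1, with replicate 2 standing for its group, the H2O2 count was 6. With peaks limited to q of 1e-05 or less, the counts were 1 in H2O2 and 3 (kay, Jra and puc) in control, against 0.963% and 4.86% of all genes. Long genes met more peaks: among genes over 10 kb, 24.1% had a peak in both H2O2 libraries and 22.7% in both control libraries, and kay, puc and Mkp3 are of that length. Among genes of 2 to 10 kb, such as Jra and MKP-4, the shares were 8.03% in H2O2 and 15.0% in control. Among genes under 2 kb, such as Gadd45, Atf-2 and p38a, 5.63% had one in both H2O2 libraries and 8.81% in both control libraries.

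kay encodes Fos, the partner of Jun in AP-1, and was the only one of the 8 with a peak in every library, as 3.21% of all protein-coding genes and 10.4% of those over 10 kb had. The gene spans 28119 bp (3R 29765995 to 29794113). Peaks covered 30.9% and 29.1% of it in H2O2 replicates 1 and 2, against 40.7% and 14.9% in control replicates 1 and 2. The H2O2 values lay between the control values, so the groups overlapped. The mean was 30.0% ± 1.24 in H2O2 and 27.8% ± 18.3 in control (SD, n = 2 each), a difference of 2.19 percentage points (exact permutation p = 1). The sign depended on 1 library: without control replicate 2 the difference was -10.7 points, and without control replicate 1 it was 15.1 points.

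The peaks of kay stood in the same part of the gene in every library. No peak began nearer than 16610 bp to the low-coordinate end, so the part that holds the nested genes fig and lncRNA:CR46110 was free of peaks in all 4 lists. The RefSeq table used here gives no strand and no exons, so this end is named by its coordinate, not as the start or the end of transcription. The strongest summit lay 26347 and 25877 bp from that end in H2O2 replicates 1 and 2, and 25981 and 26545 bp from it in control replicates 1 and 2, a range of 668 bp. These summits stood at fold percentiles 98.9 and 96.6 of the H2O2 lists and 96.0 and 75.3 of the control lists. The percentile is the rank of the authors' fold enrichment at a peak within its own list, since the background of the fold is not given. The authors' fold itself was 2.35 and 2.11 at these H2O2 peaks and 2.41 and 1.85 at these control peaks.

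A second group of kay summits was found nearer the middle of the gene. It lay 17184 and 16806 bp from the low-coordinate end in H2O2 replicates 1 and 2, and 16808 and 16833 bp in control replicates 1 and 2. The summits of H2O2 replicate 2 and control replicate 1 were thus 2 bp apart, and another pair, of H2O2 replicate 2 and control replicate 2, was 1 bp apart (24847 and 24848 bp). Percentiles at this second group were 4.48 and 92.0 in H2O2 replicates 1 and 2, against 90.5 and 37.0 in control replicates 1 and 2, so the libraries shared its position but not its rank.

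The libraries differed in how the peaks of kay were split. H2O2 replicate 1 had 6 peaks with a median width of 1340.5 bp and H2O2 replicate 2 had 9 with a median of 949 bp. Control replicate 1 had 2 wide peaks (5009 and 7812 bp), and control replicate 2 had 6 with a median of 432.5 bp. Bases covered in both H2O2 libraries numbered 7331, and 0 of them lay outside the control peaks. Bases covered in both control libraries numbered 4196, of which 9 lay outside the H2O2 peaks, and 4039 bp (14.4% of the gene) were covered in all 4. Past the high-coordinate end, H2O2 replicate 1 had a peak of 2632 bp with its summit over the neighbouring gene sro (29794251 to 29796882, percentile 71.6), and H2O2 replicate 2 had one of 303 bp over Rnb (29796086 to 29796388, percentile 3.26). In control replicate 1 the wider kay peak (29787668 to 29795479, percentile 96.0) also ran past this end and over most of sro, with its summit inside kay.

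**Figure D1:**
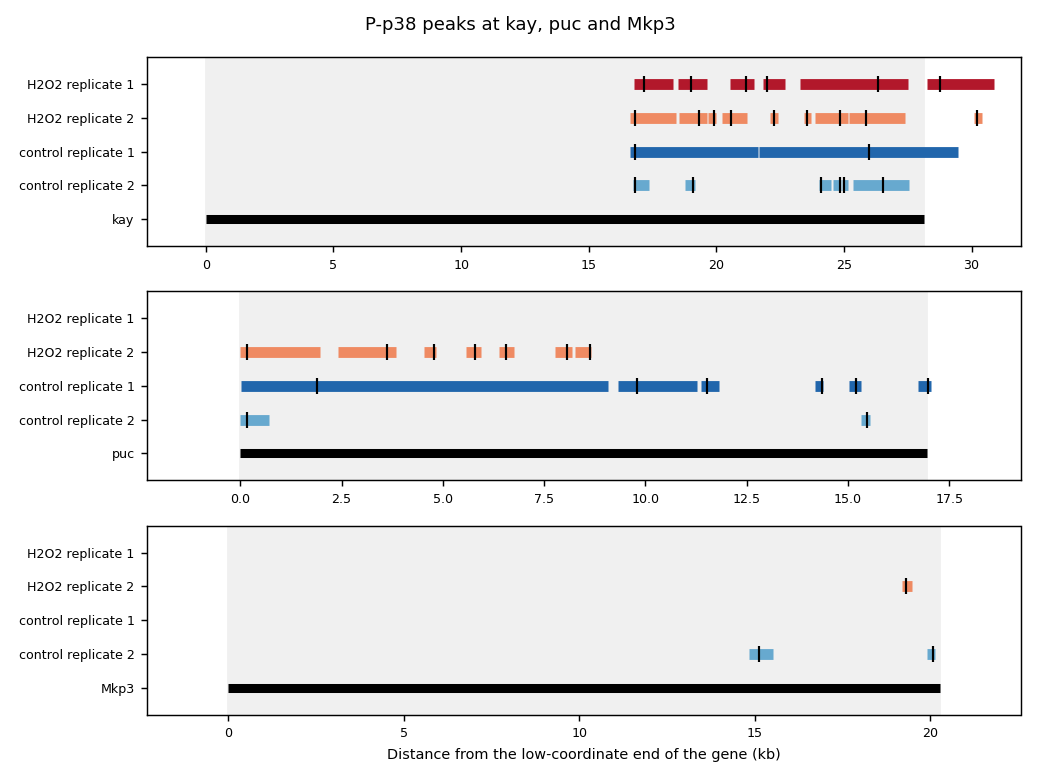
Peaks at kay, puc and Mkp3 in each library (coloured bars, black ticks at summits), by distance in kb from the low-coordinate end of the gene, with H2O2 libraries above control libraries and the gene as a black bar on grey. All 4 libraries had peaks over the same part of kay, starting 16610 bp or more from its low-coordinate end, while H2O2 replicate 1 had none at puc or Mkp3.

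Jra encodes Jun (2R 10096480 to 10098556, 2077 bp) and showed the widest gap between groups of the 8 genes in the lists as deposited. Peaks covered 0% of it in both H2O2 libraries, against 75.1% and 50.4% in control replicates 1 and 2, so the groups did not overlap. The difference was -62.7 percentage points, with means of 0% ± 0 in H2O2 and 62.7% ± 17.4 in control (SD, n = 2 each), and the exact permutation p was 0.333, the smallest possible. At q of 1e-05 or less the difference was -37.5 points and the groups overlapped (exact permutation p = 1), while that of Gadd45 was -47.2 points (exact permutation p = 1). Of the 8 genes, Jra and MKP-4 had both control values above both H2O2 values, a pattern met by 4.98% of all protein-coding genes. None of the 8 had the converse, which was met by 3.66%.

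The sole H2O2 peak within 2 kb was one of 228 bp in replicate 2 over CG2269, 1538 bp before the low-coordinate end (percentile 47.3). The Jra peaks of the control libraries reached over its high-coordinate end into RpLP0-like, a gene that overlaps it by 39 bp. In control replicate 1 the peak (10096998 to 10099365) had its summit 18 bp past that end, inside RpLP0-like, at fold percentile 98.6. In control replicate 2 the peak (10097510 to 10098839) had its summit 191 bp inside Jra at percentile 6.53, with a -log10 q of 1.03. A second control peak lay beyond it over 14-3-3zeta, whose product is an adaptor for phosphorylated proteins, with summits 66 bp apart at percentiles 68.4 and 86.1. The stricter q of 1e-05 kept Jra as a control gene through this neighbouring peak in replicate 2.

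Atf-2, a bZIP factor that p38 can phosphorylate (2R 24870108 to 24871509, 1402 bp), had 1 peak in H2O2 replicate 2 and 1 in control replicate 1. They covered 18.1% and 18.5% of the gene, against 0% in H2O2 replicate 1 and 0% in control replicate 2, so the groups overlapped (difference -0.18 points, exact permutation p = 1). The peaks measured 254 bp in H2O2 and 259 bp in control, and their summits lay 44 bp apart, 1028 and 1072 bp from the low-coordinate end. Both ranked low or middling in their lists, at percentile 20.2 in H2O2 replicate 2 and 42.3 in control replicate 1, with -log10 q of 0.823 and 1.89. Without H2O2 replicate 1 the difference was 8.88 points and without control replicate 1 it was 9.06 points.

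p38a, a gene of the kinase family that was immunoprecipitated (3R 24150416 to 24152321, 1906 bp), had a single peak in the 4 lists. Coverage was 0% in both H2O2 libraries, against 13.1% and 0% in control replicates 1 and 2. The control peak measured 250 bp (24151949 to 24152198) and stood at percentile 52.9, with its summit 203 bp from the high-coordinate end. The means were 0% ± 0 in H2O2 and 6.56% ± 9.27 in control (SD, n = 2 each, exact permutation p = 1). Without control replicate 1 the difference was 0. The neighbouring p38c, 212 bp away, was within 2 kb of that same peak and had no other, and p38b had none in any library.

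**Figure D2:**
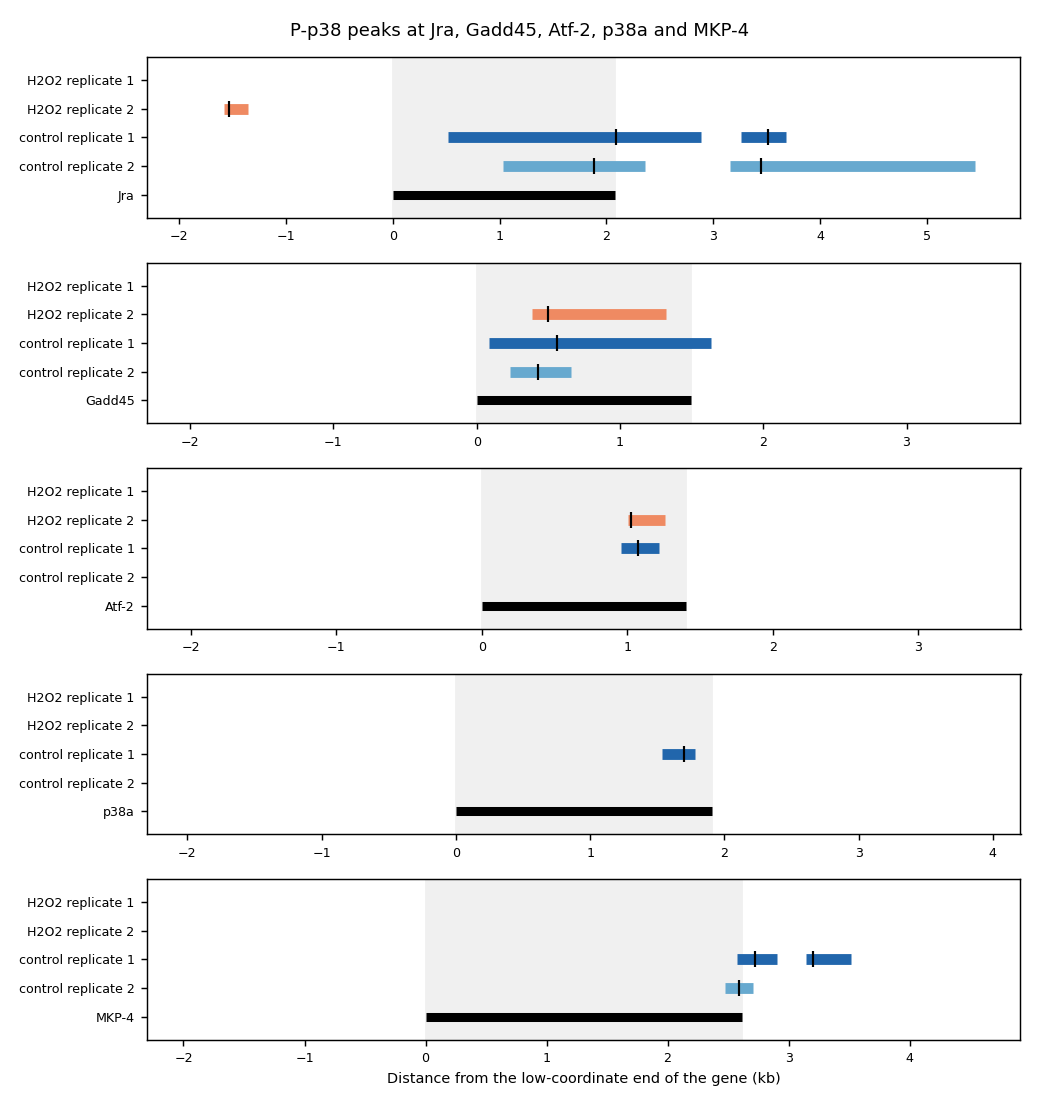
Peaks at Jra, Gadd45, Atf-2, p38a and MKP-4 in each library (coloured bars, black ticks at summits), by distance in kb from the low-coordinate end of the gene, with H2O2 libraries above control libraries and the gene as a black bar on grey. H2O2 replicate 1 had no peak at any of these genes, and the 3 peaks of Gadd45 had summits within 135 bp of each other.

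puc encodes the JNK phosphatase Puckered (3R 8105332 to 8122294, 16963 bp) and was covered over 0% and 30.6% in H2O2 replicates 1 and 2, against 71.9% and 5.48% in control replicates 1 and 2. Each group thus held a high and a low library, and the groups overlapped. Means were 15.3% ± 21.7 in H2O2 and 38.7% ± 47.0 in control (SD, n = 2 each), and the difference of -23.4 points had an exact permutation p of 0.667. Without control replicate 1 the difference was 9.84 points.

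Peaks at puc met at its low-coordinate end in 3 libraries. The strongest of the 7 peaks of H2O2 replicate 2 (8105329 to 8107291, percentile 97.2) had its summit 158 bp from that end. The strongest peak of control replicate 1, 9052 bp wide (8105346 to 8114397), stood at percentile 99.2 with its summit 1892 bp from the end, and all 7 H2O2 peaks overlapped it. The main peak of control replicate 2 (8105332 to 8106040, percentile 87.4) had its summit at 176 bp, 18 bp from the H2O2 one. At the high-coordinate end control replicate 1 had a peak of 339 bp (8122057 to 8122395, percentile 62.7), with its summit 13 bp past that end. No base of puc was covered in both H2O2 libraries, and 695 bp were covered in 3 libraries.

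MKP-4, a dual-specificity MAP kinase phosphatase gene (X 19623114 to 19625729, 2616 bp), had peaks in the control libraries alone, a pattern met by 7.02% of all genes. Peaks covered 0% of it in both H2O2 libraries, against 1.76% and 5.35% in control replicates 1 and 2 (difference -3.56 points, exact permutation p = 0.333). The groups did not overlap, but the covered part came to 46 and 140 bp at the high-coordinate end, where MKP-4 overlaps CG14212 by 25 bp. The summit of control replicate 1 lay 106 bp past that end, in CG14212 (percentile 82.6), and that of control replicate 2 lay 29 bp inside it (percentile 64.5). At q of 1e-05 or less neither peak was left.

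Mkp3, whose product acts on the ERK homologue rl in feedback (3L 19066155 to 19086426, 20272 bp), was covered over 0% and 1.34% in H2O2 replicates 1 and 2, against 0% and 4.62% in control replicates 1 and 2. Both replicates numbered 1 had no peak, and the groups overlapped (difference -1.64 points, exact permutation p = 1). Without control replicate 2 the difference was 0.668 points. The H2O2 peak (271 bp, percentile 2.94) was among the lowest of its list, and the control peaks of 693 and 244 bp stood at percentiles 72.4 and 39.1. The H2O2 peak overlapped neither of them, its summit being 788 bp from the nearest.

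Gadd45, whose mammalian homologues activate a MAP kinase kinase kinase upstream of p38 and JNK (2R 7249161 to 7250655, 1495 bp), was covered over 0% and 62.5% in H2O2 replicates 1 and 2, against 94.4% and 28.4% in control replicates 1 and 2. The H2O2 value of replicate 2 lay between those of the control libraries, so the groups overlapped. Means were 31.3% ± 44.2 in H2O2 and 61.4% ± 46.6 in control (SD, n = 2 each, exact permutation p = 0.667), and the difference of -30.1 points was 1.14 without H2O2 replicate 1 and 2.84 without control replicate 1. The single peak of each library had its summit 497 bp from the low-coordinate end in H2O2 replicate 2, and 563 and 428 bp in control replicates 1 and 2. Percentiles were 31.3 in H2O2 replicate 2, and 98.5 and 23.2 in control replicates 1 and 2. No other annotated gene lies within 2 kb of Gadd45.

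**Figure D3:**
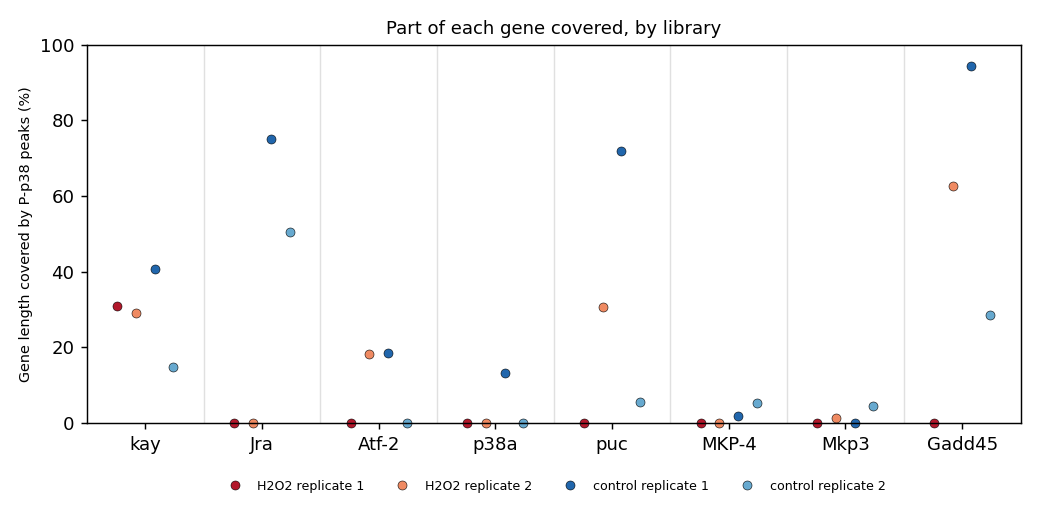
Percent of the length of each gene covered by P-p38 peaks, 1 point per library, H2O2 libraries left of control libraries. Both H2O2 values of kay (30.9% and 29.1%) lie between its control values (40.7% and 14.9%), and Jra is at 0% in H2O2 against 75.1% and 50.4% in control.

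The median percent covered over all protein-coding genes was 0 in every library, since 90.0% and 88.8% of genes had no peak over them in H2O2 replicates 1 and 2 and 87.0% and 87.8% in control replicates 1 and 2. Over the 8 genes the median was 0% and 9.73% in H2O2 replicates 1 and 2 and 29.6% and 5.41% in control replicates 1 and 2. kay was covered to a larger part than 98.5% and 98.6% of genes in the H2O2 lists and 97.2% and 94.1% in the control lists. Gadd45 passed 99.5% of genes in H2O2 replicate 2, and 99.6% and 96.2% in control replicates 1 and 2. Jra, at 0% in both H2O2 libraries, passed 98.7% and 97.7% of genes in control replicates 1 and 2. puc passed 98.7% in H2O2 replicate 2 and 98.6% in control replicate 1. Some values lay just above the genes at 0: Mkp3 passed 90.6% of genes in H2O2 replicate 2, puc 91.2% in control replicate 2 and MKP-4 88.8% in control replicate 1.

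The 55 peaks ran through the whole range of fold ranks. Peaks above percentile 50 numbered 3 of 6 and 6 of 20 in H2O2 replicates 1 and 2, and 12 of 15 and 5 of 14 in control replicates 1 and 2. Control replicate 1 thus held more of the high-ranking peaks near these genes than any other library. At q of 1e-05 or less 5 of 6 and 7 of 20 peaks were left in H2O2 replicates 1 and 2 and 9 of 15 and 5 of 14 in control replicates 1 and 2. In the whole lists 624 of 6434 and 306 of 4019 peaks passed that q in H2O2, and 931 of 4314 and 767 of 2988 in control. The deposited lists also hold weak peaks, and near these genes q exceeded 0.05 for 0 and 3 peaks in H2O2 and 0 and 2 peaks in control. Such peaks were not counted over the whole lists. Peaks that overlapped were joined into 20 regions, of which 12 came from 1 library and 2, both at kay, from all 4. No region was met in both H2O2 libraries and neither control library, and 3 (2 within 2 kb of Jra and 1 at MKP-4) were met in both control libraries and neither H2O2 library. Regions were joined near these genes only, so no share over the whole series stands beside these counts. They say nothing of a difference from other regions.

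**Figure D4:**
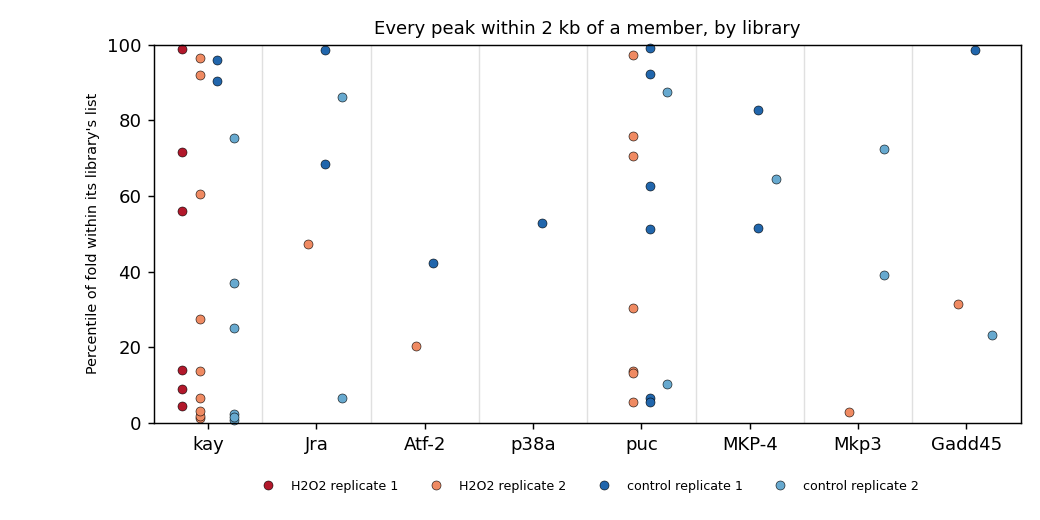
Fold percentile of every peak within 2 kb of a gene, within the list of its own library, 1 point per peak, H2O2 libraries left of control libraries. The highest percentiles in any library are 98.9 at kay, 99.2 at puc, 98.6 at Jra and 98.5 at Gadd45, while those of Atf-2 and p38a stay at or below 52.9.

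Other genes of the pathway were described in 4 lists by the same measure, a peak within 2 kb in both libraries of a group. These lists too were chosen with earlier results of these data known. Of 27 genes of the MAP kinase cascades, 2 were met in H2O2 and 8 in control, which is 7.41% and 29.6% beside 9.19% and 13.2% of all genes. Of the 27, 10 are over 10 kb, a length class met at 24.1% in H2O2 and 22.7% in control. Single libraries met 4 and 6 of them in H2O2 and 14 and 10 in control. Of all genes, single libraries met 14.9% and 18.2% in H2O2 and 21.5% and 22.4% in control. These shares also stand beside the single-library counts of the other lists. The H2O2 genes were rl, which encodes ERK, and wnd, a mixed-lineage kinase gene upstream of JNK. Both had a peak in all 4 libraries, as 3.21% of all genes and 10.4% of those over 10 kb had. wnd was covered over 0% and 6.60% in H2O2 replicates 1 and 2, against 1.85% and 2.79% in control replicates 1 and 2. Its highest percentiles were 22.0 and 43.0 in H2O2, against 62.4 and 81.2 in control. rl spans 54466 bp and was covered over 3.95% and 1.63% in H2O2 and 4.81% and 3.62% in control. The highest-ranking control genes were msn, a kinase gene at the top of the JNK cascade, the TNF receptor gene wgn, the ETS factor gene pnt and Ras85D. The peaks near wgn lay beside the gene and covered 0% of it in both control libraries. Ras85D was covered over 0% in both H2O2 libraries, against 69.1% and 26.9% in control replicates 1 and 2. The JNK gene bsk had no peak within 2 kb in any library.

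Among 8 other phosphatase and feedback inhibitor genes, 1 (Ptp61F) was met in H2O2 and 3 (sty, Ptp61F and csw) in control. These are 12.5% and 37.5% beside 9.19% and 13.2% of all genes. Of the 8, 5 are over 10 kb, a length class met at 24.1% in H2O2 and 22.7% in control. The single H2O2 libraries met 1 and 2 of the 8, and each control library met 4. The peaks near csw lay beside the gene and covered 0% of it in both control libraries. sty, which encodes the Ras pathway inhibitor Sprouty, was covered over 0% and 2.18% in H2O2 replicates 1 and 2, against 61.0% and 63.5% in control replicates 1 and 2. Ptp61F, of 132765 bp, was covered over 4.68% and 1.64% in H2O2 replicates 1 and 2, against 0.551% and 0.304% in control replicates 1 and 2. In this list Ptp61F alone had both H2O2 values above both control values (3.66% of all genes). Only sty had the converse (4.98%). Of 16 other bZIP factor genes, 2 (Xrp1 and cnc) were met in H2O2 and 7 in control, led by Xrp1, Xbp1, crc and cnc. These are 12.5% and 43.8% beside 9.19% and 13.2% of all genes, and 8 of the 16 are over 10 kb. The single H2O2 libraries met 4 and 3 of the 16, and the control libraries met 10 and 8. Xbp1, a factor of the unfolded protein response, was covered over 0% and 71.8% in H2O2 replicates 1 and 2, against 98.9% and 100% in control replicates 1 and 2. As at puc and Gadd45, H2O2 replicate 1 was the library without a peak.

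Of 11 genes known as targets of AP-1 or JNK, 6 (54.5%) were met in both H2O2 libraries and 2 (18.2%) in both control libraries, beside 9.19% and 13.2% of all genes and 24.1% and 22.7% of genes over 10 kb. A further 5 had no peak in any library, and the difference between the counts was not tested. Single libraries met 6 and 6 of them in H2O2 and 4 and 3 in control. The JNK target puc was counted among the 8 genes and not in this list. It had a peak in 1 H2O2 library and in both control libraries. The H2O2 genes were Mmp1, a matrix metalloproteinase gene, the ETS factor gene Ets21C, scaf, a gene of a serine protease homologue, and the filamin gene cher, with hid and upd2 named here after their values were seen. Of these Mmp1, hid, scaf and cher are over 10 kb long. Mmp1 was covered over 56.5% and 28.6% in H2O2 replicates 1 and 2, against 59.9% and 0% in control replicates 1 and 2. scaf was covered over 18.5% and 13.8% in H2O2, against 0% in both control libraries, and was the one gene of the list with peaks in both H2O2 and neither control library (3.64% of all genes). Ets21C was covered over 26.7% and 33.0% in H2O2, against 77.3% and 2.76% in control, and cher over 5.67% and 1.96% in H2O2, against 43.6% and 3.31% in control. The cell death gene hid was covered over 1.26% and 1.58% in H2O2, against 0% and 4.67% in control, and its highest percentile was 21.7 and 81.7 in H2O2, against 90.9 in control replicate 2. The cytokine gene upd2 was covered over 21.5% and 8.17% in H2O2, against 9.77% and 0% in control. Mean coverage was thus higher in control for Ets21C, cher and hid. In all, 5 of the 6 genes also had a peak in at least 1 control library.

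**Figure D5:**
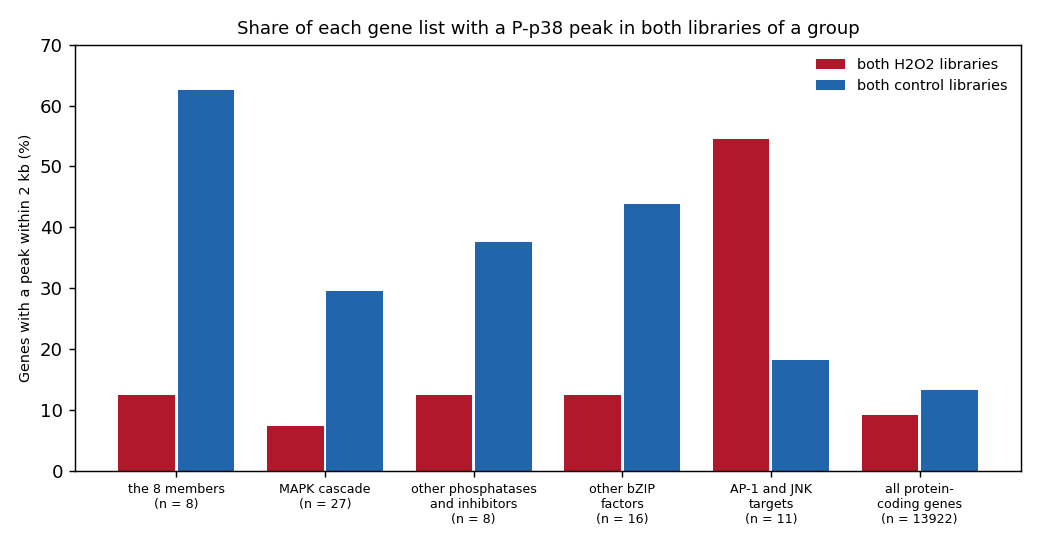
Percent of the genes of each list with a P-p38 peak within 2 kb in both H2O2 libraries (red) and in both control libraries (blue), with all 13922 protein-coding genes at the right. The AP-1 and JNK targets, which leave out puc, are the list in which the H2O2 bar (54.5%) stands above the control bar (18.2%).

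Genes whose 4 values of percent covered and 4 values of highest fold percentile came nearest to those of a member were also sought among all protein-coding genes. For kay they were the ubiquitin gene Ubi-p63E and ImpL2, at Euclidean distances of 28.9 and 29.7 points over the 8 values of 4 libraries. Ubi-p63E was covered over 25.2% and 33.1% in H2O2 replicates 1 and 2 and 33.0% and 28.1% in control replicates 1 and 2. For Jra they were lost and Uba1, which encodes the ubiquitin-activating enzyme (18.7 and 19.2), and for puc 14-3-3epsilon and Adss (30.6 and 31.6). The nearest to Gadd45, the glutathione transferase gene GstE3, lay at 48.3, so no gene matched Gadd45 as closely.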

How the data were processed

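P-p38 ChIP-seq peak lists of 4 libraries (2 H2O2, 2 control) were used. Picard, MACS2 and the build dm6 are named in the submitters' processing notes, whereas tool versions, calling options and the library used as background were not stated. The deposited lists give per peak a score (10 times the -log10 p-value, cut to a whole number), the authors' fold enrichment as a linear ratio, and p-value and q-value as -log10. The lowest -log10 p was 2.00 to 2.01. Peaks were called per library. Depth is unknown, so no counting intervals are given.

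Gene positions came from the RefSeq table of Release 6, the same assembly as dm6, and all 8 genes and all 62 listed genes were matched by symbol. Overlap, percent covered and percentiles were computed with Python 3.11.15 and pandas 2.3.3, and the code recovered coverage and calls of all 360 genes in simulated data. Differences of mean percent covered were tested by exact two-sided permutation of group labels. Alternatives were a stricter q, lists of equal length, other windows, summits, left-out libraries and a replicate block. The genes and lists were chosen with earlier results of these data known. All 8 genes are named, and from the lists up to 4 genes per group with the highest lower percentile. Genes most like a member lay at least 20 kb away or on another arm. No sequences are shown.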

Additional observations from a re-analysis of the deposited data

How the results depend on the processing

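The count of the 8 genes with a peak in both libraries was 1 in H2O2 and 5 in control under windows of 0 and 1 kb, summits in the window, at least 50% of the peak in the window and lists of equal length (2988 peaks), and 1 and 6 with a window of 5 kb. It was 3 in control at q of 1e-05 or less. With a single library standing for its group it was 1 or 6 in H2O2 and 6 or 7 in control, against 1 and 5 where both libraries of the group were kept. Over all protein-coding genes, 1279 in H2O2 and 1837 in control as deposited, the counts were 134 and 677 at q of 1e-05 or less, 810 and 964 with a window of 0 kb, 1977 and 2780 with 5 kb, 719 and 1573 with lists of equal length, and 1279 to 2530 and 1837 to 3114 without single libraries. For the pathway lists, each library alone standing for its group was an alternative chosen after seeing the data. These lists then had 4 to 6 (H2O2) and 10 to 14 (control) of the cascade genes. They had 1 to 2 and 4 of the other phosphatase and inhibitor genes. Of the bZIP genes they had 3 to 4 and 8 to 10, and of the AP-1 and JNK targets 6 and 3 to 4. Of all genes, single libraries met 14.9% to 18.2% in H2O2 and 21.5% to 22.4% in control.

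The sign of the difference in percent covered (H2O2 minus control) turned for kay to -6.91 points with lists of equal length and -0.0782 at q of 1e-05 or less. At that q it was 0 for Atf-2, MKP-4 and p38a and -37.5 for Jra. Without single libraries the differences ran from -10.7 to 15.1 for kay, -9.42 to 9.06 for Atf-2, -63.1 to 2.84 for Gadd45, -3.95 to 0.668 for Mkp3, -56.6 to 9.84 for puc, -13.1 to 0 for p38a, -75.1 to -50.4 for Jra and -5.35 to -1.76 for MKP-4. The cause was not tested. With 2 kb on each side of the gene all 8 signs stayed. The labels do not say that replicate numbers pair the libraries, and the correlation of replicate 1 minus replicate 2 between the groups was 0.0606 over 3727 genes (a description across genes, which are not independent). With the replicate block each difference equals the one as deposited by arithmetic, so no sign could change, and calls were not recomputed. For Jra it was -62.7 points with an exact sign-flip permutation p of 0.5, the smallest possible.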
